A study of Mus musculus with 16 samples.

Results

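The genes described here encode the collagens and a small set of matrix proteins that sit beside them: the small leucine-rich proteoglycans Dcn (decorin), Lum (lumican), Ogn (osteoglycin), Fmod (fibromodulin) and Bgn (biglycan), and the matrix glycoproteins Sparc and Fn1 (fibronectin). They were chosen by gene name on an Agilent mouse array, and 47 of them had a probe there, 40 collagens among them. The 42 that were well above background on at least 4 of 8 arrays were followed, out of 17983 genes that passed the same filter. Col10a1, Col12a1, Col14a1, Col28a1 and Col4a3 were measured but did not pass. Col6a4, Col6a6 and Col26a1 are on the array under older names that the choice by name does not take in; of these, Col26a1 passed the filter, with a difference of 0.21 on the log2 scale.

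Collagens are trimers whose chains repeat the unit Gly-X-Y along the whole helix, and they fall into classes by what they build. Fibrillar collagens form the tensile fibrils of connective tissue, FACIT collagens decorate those fibrils, beaded filament collagens form fine networks around cells, and basement membrane collagens form the sheets under endothelium, epithelium and the glial surface of the brain. In brain the neural tissue itself holds little fibrillar collagen; the meninges, large vessels and choroid plexus stroma hold most of it, while type IV collagen lines every vessel. Small leucine-rich proteoglycans bind fibrils and set their spacing and width.

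Cerebella of 8 mice were measured, 4 Npc1-/- and 4 wild-type (Npc1+/+), each on 1 one-colour array with 500 ng of total RNA labelled with Cy3. The null allele is that of the strain BALB/cNctr-Npc1m1N/J; the mice were on a BALB/c background, bred in house from heterozygous parents, and cerebella were taken at 3 weeks of age. Npc1 encodes a lysosomal membrane protein that moves cholesterol out of the lysosome, and it is lost in all cells of the Npc1-/- mice, so the model does not separate matrix-producing cells from neurons or glia. The labels do not give the sex of the mice or which cerebellum went to which slide.

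The values below are log2 signals minus that of the array's 75th percentile, so 0 is that percentile and a negative value is a dimmer spot; a level of 1 gene is not set against that of another, because probes differ in brightness. Between 22182 (wild-type array 2) and 28137 of 41174 probes per array were well above background, and no spot was saturated. Npc1 itself read -2.53, -2.44, -2.32 and -2.60 on Npc1-/- arrays 1 to 4 and -0.52, -0.40, -0.64 and -0.37 on wild-type arrays 1 to 4. It was lower on every Npc1-/- array, by -1.99 ± 0.10 (log2 difference ± SE; limma adjusted p = 0.00045). All 10 cerebellar neuron markers checked (Pcp2, Calb1, Cbln1 and others) were well above background on all 8 arrays. Wild-type array 3 stood apart from the rest: on the first principal component of all genes, which held 47.0% of the variance, it scored 73.0, wild-type array 4 scored 23.0 and Npc1-/- array 4 scored 9.71, and the other 5 arrays lay between -36.5 and -10.4.

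No collagen, proteoglycan or glycoprotein passed the test between genotypes. Over all genes limma called 138 at an adjusted p under 0.05, or 0.767%, with 132 higher and 6 lower in Npc1-/-; of the 42 matrix genes it called 0, and the smallest adjusted p was 0.136, for Col22a1. At an unadjusted p under 0.05, 8 of the 42 (19%) were higher in Npc1-/-, beside 5.09% of all genes, and 0 were lower, beside 2.31%. The 8 were Col22a1, Fmod, Col6a3, Dcn, Col5a3, Col16a1, Col1a2 and Col1a1. Groups did not overlap, with Npc1-/- higher, for 4 genes (9.52%, against 2.96% of all genes): Fmod, Dcn, Col6a3 and Col22a1. They did not overlap, with Npc1-/- lower, for 1 gene, Col18a1 (2.38%, against 1.95%). The difference was above 0 for 32 of the 42 (76.2%), where 46.6% of all genes lay above 0; scaled by the array median in place of the 75th percentile, 25 of the 42 lay above 0, and 30.03% of all genes. Of the 42 genes, 38 were well above background on all 8 arrays. The 95% interval of a difference, not adjusted for the number of genes, reached a median of 0.37 to either side over the 42 genes. A change much smaller than that was not resolvable with 4 arrays per group. The adjusted test missed larger differences too, such as 0.65 for Fmod (limma adjusted p = 0.17).

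**Figure D1:**
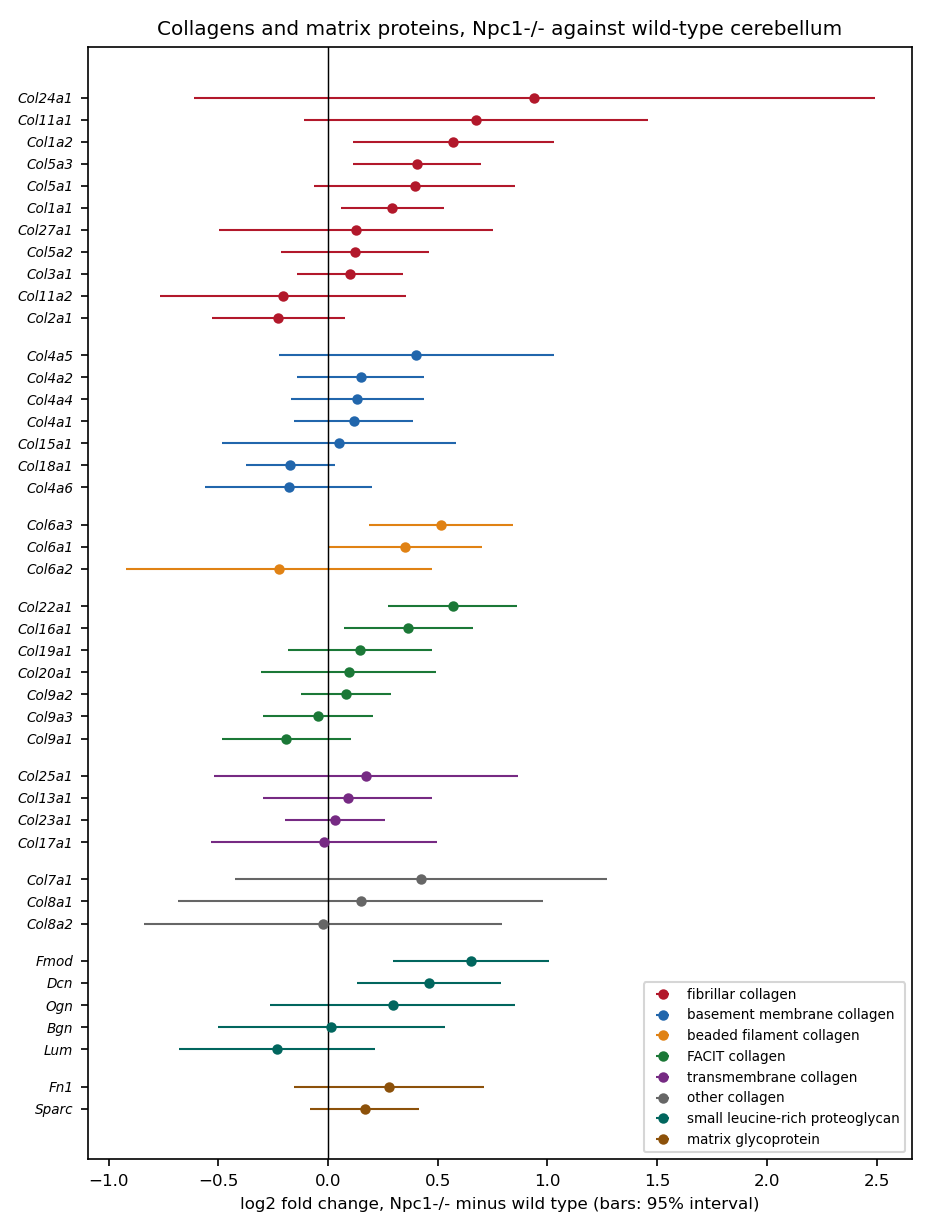
Each point is the log2 fold change of 1 matrix gene, Npc1-/- minus wild type, with its 95% interval from limma (4 arrays per group), coloured by class. Intervals of 8 genes lie wholly above 0 and none lies wholly below it; the widest belongs to Col24a1.

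The glycine repeat can be read directly in the probes. Only 3 of the 41174 probes, or 0.00729%, hold a glycine codon (GGN) at each repeat of the Gly-X-Y frame from end to end, and all 3 belong to fibrillar collagens; they are printed 5′ to 3′ with the glycine codons in capitals. Their coordinates are mm7 spans that include introns.

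Col11a2, chr17:32131401-32131567, + strand: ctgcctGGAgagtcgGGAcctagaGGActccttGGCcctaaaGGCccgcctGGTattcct
Col5a1, chr2:27994034-27996457, + strand: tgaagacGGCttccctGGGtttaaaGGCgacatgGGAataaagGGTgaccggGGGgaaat
Col5a3, chr9:20655471-20656200, - strand: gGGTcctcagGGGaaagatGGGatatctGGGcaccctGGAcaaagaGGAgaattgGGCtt

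These probes in the triple-helix coding part were dim: they were well above background on 6 arrays for Col11a2, 4 for Col5a1 and 0 for Col5a3. None was the probe used for its gene, since the brightest probe of each gene was taken. For Col11a2 the triple-helix probe gave a difference of 0.70 where the brighter probe gave -0.21. That triple-helix probe read -5.00, -5.51, -3.33 and -5.04 in Npc1-/- and -5.46, -5.35, -6.20 and -4.65 in wild type. Its difference rested in large part on Npc1-/- array 3, and it was well above background on 4 Npc1-/- and 2 wild-type arrays. For Col5a1 the triple-helix probe gave 0.44 and the brighter probe 0.39. In all, 15 of the 42 genes had more than 1 probe passing the filter, and the signs were opposed in Col11a2 and Col23a1.

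Fibrillar collagens, the class of 11 genes that all passed the filter, had a median difference of 0.29, with 9 above 0 and 2 below; the median of all genes was -0.02. Type I collagen, the main fibril of meninges, bone and skin, is built from Col1a1 and Col1a2. Col1a1 (probe at chr11:95060800-95060859, + strand, mm7) read 0.67, 0.70, 0.60 and 0.38 on Npc1-/- arrays 1 to 4 and 0.18, 0.39, 0.26 and 0.32 on wild-type arrays 1 to 4. The groups overlapped only between Npc1-/- array 4 and wild-type array 2, and the difference was 0.29 ± 0.10 (limma adjusted p = 0.50); a second probe gave 0.34. Col1a2 (chr6:4493505-4493564, + strand) read 2.84, 2.34, 2.51 and 2.11 in Npc1-/- and 2.16, 2.15, 1.57 and 1.65 in wild type. Wild-type arrays 3 and 4 were the low ones and Npc1-/- array 4 fell below wild-type arrays 1 and 2; the difference was 0.57 ± 0.20 (limma adjusted p = 0.50).

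The 250 bases before the RefSeq start of Col1a2 (GRCm38.p6, chr6:4505368-4505617, + strand) are shown because both type I chains had unadjusted p under 0.05 and this promoter holds 2 kinds of common promoter motif, in capitals: GC boxes (GGGCGG) and a CCAAT box (CCAAT).

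Col1a2: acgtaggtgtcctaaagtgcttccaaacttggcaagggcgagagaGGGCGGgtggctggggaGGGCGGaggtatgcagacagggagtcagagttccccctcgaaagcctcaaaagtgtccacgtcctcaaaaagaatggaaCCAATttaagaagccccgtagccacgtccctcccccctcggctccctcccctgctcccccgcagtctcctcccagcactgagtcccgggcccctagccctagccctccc

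Each of the 3 kinds of motif was searched on its own, on both strands, in the first listed promoter of each gene. Of 34 matrix genes with a promoter entry, GGGCGG was in 19, where 32.9% of all 27025 promoters of the same length hold it; it was in 6 of 8 fibrillar and 4 of 7 basement membrane promoters. CCAAT was in 11 of the 34, against 34.5% of all, and in 3 of 8 fibrillar (Col11a1, Col1a2, Col5a3) and 4 of 7 basement membrane promoters. Of those 4, the Col4a1 and Col4a2 windows each lie within the partner gene, because the 5′ ends of these genes overlap. TATAAA was in 5 of the 34, against 13.0% of all: 2 of 8 fibrillar promoters (Col3a1 and Col11a2) and 0 of 7 basement membrane promoters held these letters. A match is a description of the sequence only.

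Type V and XI chains nucleate and limit the width of type I and II fibrils. Col5a3 (chr9:20639940-20639999, - strand) read -0.51, -0.41, -0.70 and -0.80 in Npc1-/- and -1.07, -0.75, -1.13 and -1.08 in wild type. All Npc1-/- arrays were above 3 of the wild-type arrays, and wild-type array 2 alone overlapped; the difference was 0.41 ± 0.13 (limma adjusted p = 0.40). Col5a1 differed by 0.39, but within slides 2, 3 and 4 by 0.97, 0.04 and 0.08, and Col5a2 differed by 0.12. Col11a1 read -0.88, -1.06, -1.19 and -1.27 in Npc1-/- and -1.46, -0.96, -2.79 and -1.90 in wild type. Its difference of 0.68 ± 0.34 rested in large part on the low value of wild-type array 3, and without that array it was 0.34.

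Col24a1, a fibrillar collagen found in bone and developing cortex, had the largest difference of the class and the least certain. It read -3.62, -3.52, -3.66 and -4.10 in Npc1-/- and -4.05, -3.21, -6.89 and -4.51 in wild type, a difference of 0.94 ± 0.68 (limma adjusted p = 0.75). Wild-type array 3, where it was not well above background, set that size: without it the difference was 0.20. Col3a1, the partner of type I in vessel walls and meninges, differed by 0.10, and Col27a1, a cartilage fibril collagen, by 0.13. The 2 chains below 0 were Col2a1, the main cartilage collagen (-0.23), and Col11a2 (-0.21).

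Basement membrane collagens had a smaller median, 0.12 over the 7 of 8 that passed the filter, with 5 above 0 and 2 below, and no member had an unadjusted p under 0.05. Col4a1 and Col4a2 form the common type IV trimer of vessels and are transcribed away from each other, with RefSeq starts 21 bases apart. Col4a1 (chr8:11167020-11167079, - strand) read 0.05, 0.13, -0.25 and 0.00 in Npc1-/- and -0.30, -0.07, -0.19 and 0.04 in wild type. Col4a2 (chr8:11416851-11416910, + strand) read 0.61, 0.59, 0.23 and 0.43 in Npc1-/- and 0.14, 0.51, 0.21 and 0.41 in wild type. Both were high on Npc1-/- arrays 1 and 2 and low on Npc1-/- array 3 and wild-type arrays 1 and 3, and the groups overlapped. The differences were 0.12 (95% interval -0.15 to 0.39) for Col4a1 and 0.15 (-0.14 to 0.44) for Col4a2. Second probes, well above background on all 8 arrays, gave 0.02 for Col4a1 and 0.15 for Col4a2.

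The other type IV chains that passed the filter are Col4a4, Col4a5 and Col4a6. Col4a5 was well above background on 3 Npc1-/- and 2 wild-type arrays. It read -5.84, -5.33, -4.98 and -4.92 in Npc1-/- and -5.19, -5.81, -6.25 and -5.44 in wild type, and differed by 0.40 ± 0.27. Without wild-type array 3 the difference was 0.21, and with normexp background correction and quantile normalization 0.090. The normexp setting added an offset of 50 to every signal, which by itself shrinks the differences of dim probes. Col4a6 read -3.04, -3.02, -2.91 and -2.79 in Npc1-/- and -2.52, -2.85, -3.20 and -2.47 in wild type, and differed by -0.18 ± 0.17. Neither gene separated the groups. Col4a4 differed by 0.13, and Col15a1, which links basement membranes to the fibrils beneath, by 0.05 on a probe well above background on 3 Npc1-/- and 2 wild-type arrays.

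Col18a1, the basement membrane collagen whose end fragment is endostatin, was the only matrix gene lower on every Npc1-/- array than on any wild-type array. It read 2.34, 2.43, 2.33 and 2.25 in Npc1-/- (probe at chr10:76707663-76707722, - strand) and 2.46, 2.51, 2.64 and 2.44 in wild type. The gap between the groups was narrow, from 2.43 to 2.44, and the difference was -0.17 ± 0.09 (95% interval -0.37 to 0.03; limma adjusted p = 0.75). A second probe gave -0.28, and on slides 2, 3 and 4, the ones with both genotypes, the difference was -0.21, -0.21 and -0.13.

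**Figure D2:**
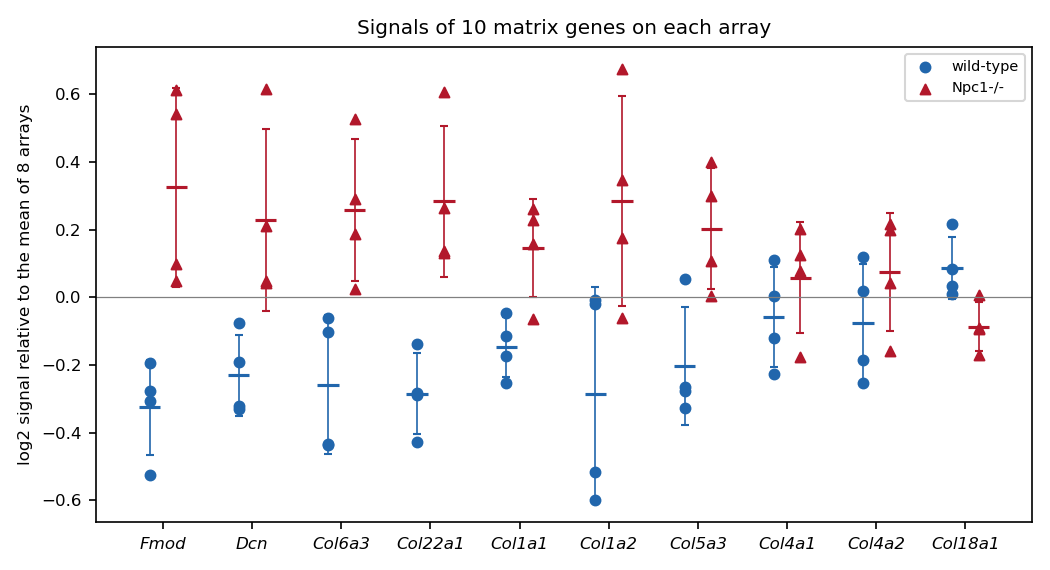
Each point is the log2 signal of 1 gene on 1 array, relative to the mean of all 8 arrays, with the mean and SD of the 4 arrays per group as bars. Groups do not overlap for Fmod, Dcn, Col6a3 and Col22a1, where Npc1-/- is higher, or for Col18a1, where it is lower; they overlap for the other 5 genes.

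The fibrillar lean followed particular arrays. Relative to the mean of all arrays, the fibrillar median was 0.23, 0.29, 0.11 and -0.05 on Npc1-/- arrays 1 to 4 and -0.02, 0.09, -0.50 and -0.28 on wild-type arrays 1 to 4. The basement membrane median was 0.05, 0.11, -0.09 and 0.06 in Npc1-/- and 0.03, 0.08, -0.19 and 0.02 in wild type. The 3 lowest fibrillar medians were on wild-type array 3, wild-type array 4 and Npc1-/- array 4, the same 3 arrays that scored above 0 on the first principal component. The match was loose. Npc1-/- array 4 (-0.05) lay just below wild-type array 1 (-0.02), which scored -18.4. Npc1-/- array 3 had the lowest score, -36.5, but a median of only 0.11. The part of that component in the fibrillar difference was not tested.

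Within slides, each with 1 wild-type array, the fibrillar median difference was 0.73 on slide 2, which holds wild-type array 3, -0.07 on slide 3 and 0.20 on slide 4. The basement membrane difference was 0.32, 0.01 and -0.01 on the same slides. The fibrillar class thus did not keep 1 sign over slides, and the difference between the classes was not tested. Leaving out wild-type array 3 gave 0.20 for the fibrillar and 0.10 for the basement membrane median. Scaling by the array median shifted all genes to a median of -0.12, and the fibrillar median was then 0.18 and the basement membrane median 0.01. This scaling shifts every gene alike. Relative to all genes the class medians therefore stay at 0.31 and 0.13 by arithmetic, which is no separate result.

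**Figure D3:**
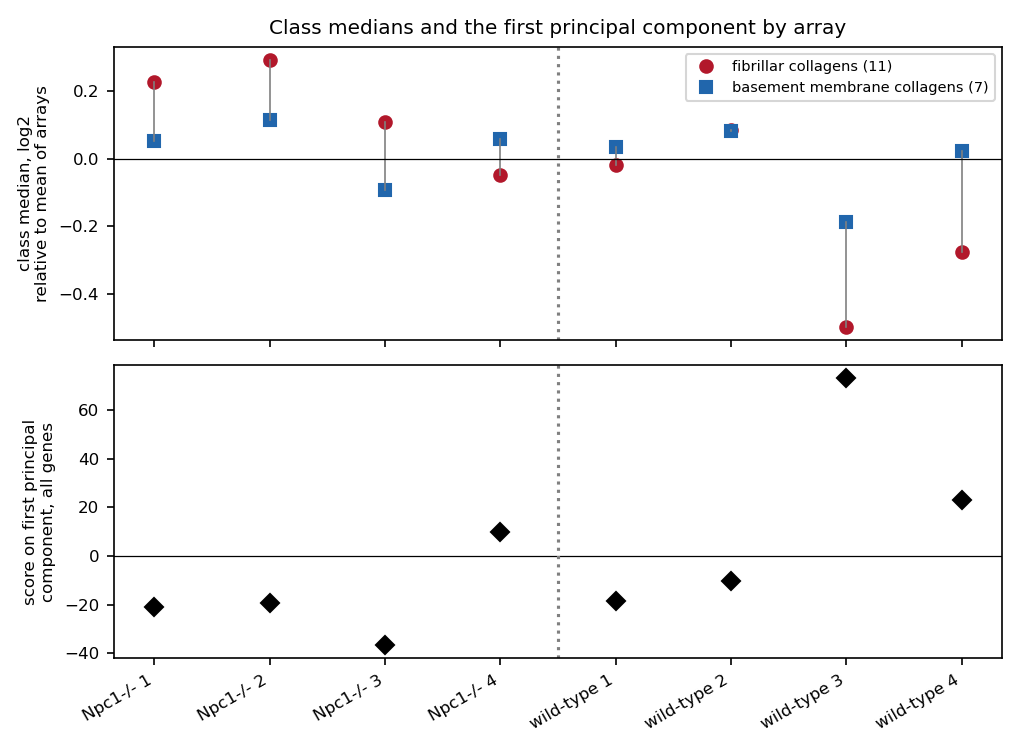
The upper panel shows the median of 11 fibrillar and 7 basement membrane collagens on each array, in log2 units relative to the mean of all arrays; the lower panel shows the score of the array on the first principal component of all genes. Wild-type array 3 has both the lowest fibrillar median, -0.50, and the highest score, 73.0.

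By Pearson's r with the mean standardised fibrillar value over the 8 arrays, genes outside the matrix set most like the fibrillar class included the transcript ENSMUST00000064814 (0.97), Insl5 (0.96), Dync1h1 (0.96) and Nphp4 (0.96). These r values describe 8 arrays that share the spread along the first principal component, and none of these genes passed the test between genotypes.

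Among the 5 small leucine-rich proteoglycans the median difference was 0.29, and Fmod and Dcn did not overlap between groups. Fmod, which binds type I fibrils and steers their crosslinking, read -0.11, -0.04, -0.56 and -0.61 in Npc1-/- and -1.18, -0.93, -0.85 and -0.96 in wild type (chr1:133937206-133937265, + strand). Every Npc1-/- array was above every wild-type array, by 0.65 ± 0.16 (95% interval 0.29 to 1.01; limma adjusted p = 0.17). Unlike the fibrillar class it was of similar size on each slide with both genotypes, at 0.81, 0.57 and 0.62. With limma's array weights, which give noisier arrays less say, 2.02% of all genes were called and 2 of the 42 matrix genes (4.76%): Fmod at 0.75 (adjusted p = 0.0237) and Col5a3 at 0.51 (adjusted p = 0.0463). In that fit wild-type array 4 had a weight of 3.88 and the other wild-type arrays 0.395 to 0.686, so both calls rest mainly on that array for the wild-type side.

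Dcn, the proteoglycan that coats type I fibrils and binds TGF-beta, read 2.66, 2.26, 2.09 and 2.10 in Npc1-/- and 1.73, 1.86, 1.97 and 1.72 in wild type (chr10:97080086-97080145, + strand). Npc1-/- array 1 was the highest, the other 3 lay just above the wild-type range, and the difference was 0.46 ± 0.14 (limma adjusted p = 0.39). Within slides it was 0.29, 0.52 and 0.36.

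The other proteoglycans did not separate the groups. Lum, a fibril-spacing proteoglycan related to Fmod, read -1.30, -1.21, -1.39 and -1.10 in Npc1-/- and -1.40, -1.20, -0.44 and -1.02 in wild type, a difference of -0.23 ± 0.20 that was -0.04 without wild-type array 3. Ogn read -0.25, -0.30, -0.97 and -0.66 in Npc1-/- and -1.33, -0.96, -0.27 and -0.80 in wild type, a difference of 0.29 ± 0.24 that was 0.13 without wild-type array 1 and 0.48 without wild-type array 3. Lum and Ogn were both highest, within wild type, on array 3, where the fibrillar median was lowest; of the fibrillar chains, Col3a1, Col2a1 and Col5a2 were also highest there. Bgn, a proteoglycan of bone and vessel wall, read -3.58, -3.68, -4.49 and -3.52 in Npc1-/- and -4.14, -3.64, -3.89 and -3.66 in wild type, a difference of 0.01 ± 0.23.

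The matrix glycoproteins overlapped too. Sparc, a collagen-binding protein made by glia and vessels in brain, read 5.16, 4.997, 5.05 and 5.21 in Npc1-/- and 4.73, 4.90, 5.10 and 5.03 in wild type, a difference of 0.17 ± 0.11. A second Sparc probe, well above background on all 8 arrays, gave 0.24 with another order of arrays. On it wild-type array 3 was the lowest array, at 3.66, where on the first probe it was the highest wild-type array. Fn1, the cell-adhesive glycoprotein of vessels and provisional matrix, read -0.11, -0.17, -0.84 and -0.57 in Npc1-/- and -0.96, -0.42, -0.64 and -0.79 in wild type, a difference of 0.28 ± 0.19 that was 0.17 without Npc1-/- array 1 and 0.42 without Npc1-/- array 3. A second Fn1 probe, also well above background on all 8 arrays, gave 0.43. Npc1-/- arrays 1 and 2 were the high ones for Fn1, as they were for Fmod and Ogn.

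Of the beaded filament collagens, Col6a3, the long chain of type VI collagen, read -2.40, -2.16, -2.50 and -2.67 in Npc1-/- and -3.13, -2.75, -3.13 and -2.79 in wild type (chr1:90671098-90671157, - strand). All Npc1-/- arrays were above all wild-type arrays, by 0.52 ± 0.14 (limma adjusted p = 0.28), and within slides by 0.96, 0.22 and 0.62. With normexp background correction and quantile normalization it was 0.25 (limma adjusted p = 0.63). The other type VI chains differed by 0.35 (Col6a1) and -0.22 (Col6a2), so the 3 chains did not share a direction. For Col6a2 the sign rested on wild-type array 2, at -1.74 against -3.33 to -2.70 on the other wild-type arrays; without that array the difference was 0.08.

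Among 7 FACIT and related collagens the median was 0.09. Col22a1, a collagen of tissue junctions such as that of muscle and tendon, read -2.79, -2.92, -2.91 and -2.44 in Npc1-/- and -3.48, -3.33, -3.34 and -3.19 in wild type (chr15:71951550-71951609, - strand). The groups did not overlap, with a difference of 0.57 ± 0.13 (95% interval 0.27 to 0.86; limma adjusted p = 0.14), and within slides it was 0.42, 0.72 and 0.56. A second probe for the gene, also well above background on all 8 arrays, gave 0.30 with overlap between groups, and with normexp background correction and quantile normalization the difference was 0.22 (limma adjusted p = 0.73). Col16a1, which joins fibrils to other matrix, differed by 0.37 ± 0.13 (limma adjusted p = 0.50), but by 0.01 within slide 3. Col19a1 (0.15), Col20a1 (0.09), Col9a2 (0.08), Col9a3 (-0.04) and Col9a1 (-0.19) lay nearer 0.

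Transmembrane collagens had a median of 0.06, with Col25a1, known from amyloid plaques, at 0.17 ± 0.30, Col13a1 at 0.09, Col23a1 at 0.03 and Col17a1 at -0.02. Col25a1 read -4.40, -5.43, -4.41 and -4.15 in Npc1-/- and -4.37, -4.77, -5.32 and -4.62 in wild type, so its groups overlapped throughout. Col7a1, the anchoring fibril collagen, read 1.22, 1.22, 1.23 and 0.33 in Npc1-/- and 1.24, 1.15, -0.27 and 0.20 in wild type. Its low arrays were the same 3 that scored above 0 on the first principal component, and its difference of 0.42 ± 0.37 was 0.14 without wild-type array 3.

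The type VIII chains, which form the hexagonal lattice under some endothelia, were set apart by 1 array; they and Ttr were singled out after their values were seen. Col8a1 read 1.15, 1.34, -0.37 and 1.17 in Npc1-/- and 0.46, 1.09, 0.51 and 0.63 in wild type. Col8a2 read -0.90, -0.70, -2.26 and -0.87 in Npc1-/- and -1.47, -0.59, -1.42 and -1.16 in wild type. Both were lowest on Npc1-/- array 3, and the differences between genotypes were 0.15 ± 0.36 and -0.02 ± 0.36. Without Npc1-/- array 3 they were 0.54 and 0.34.

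Choroid plexus markers, of which limma called 0 (0 at an unadjusted p under 0.05), were lowest on the same array. Ttr, the transthyretin secreted by choroid plexus epithelium, read 0.96, 1.74, -1.68 and 1.24 in Npc1-/- and 0.77, 1.31, 0.59 and 1.00 in wild type. The median of the 9 of 10 choroid plexus markers measured, relative to the mean of all arrays, was -1.38 on Npc1-/- array 3 and between -0.37 and 0.90 on the other arrays. The log2 of their summed level ran from 1.31 to 3.71 in Npc1-/- and from 2.62 to 3.25 in wild type. The part of the choroid plexus in the type VIII values was not tested.

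**Figure D4:**
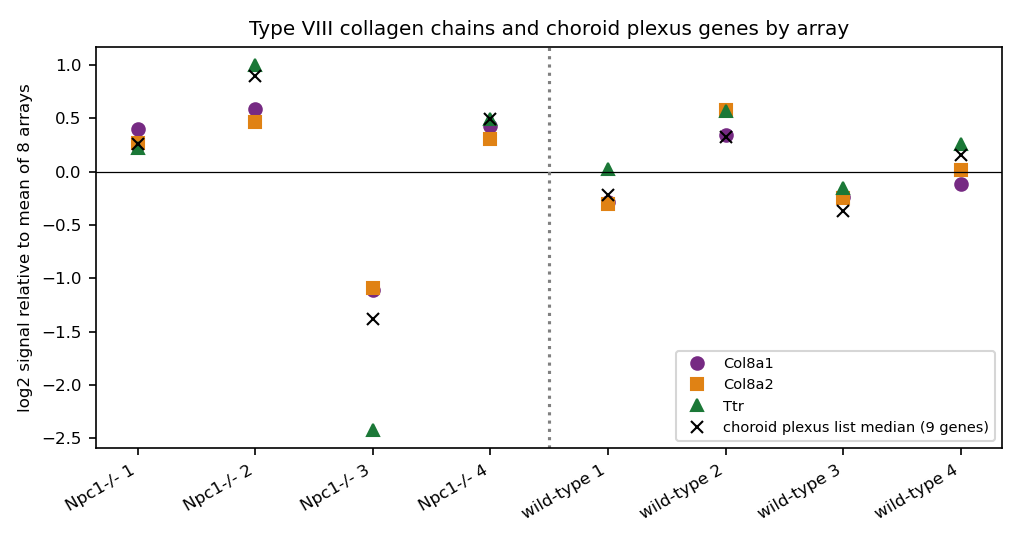
Points are log2 signals of Col8a1, Col8a2 and Ttr, and crosses the median of 9 choroid plexus markers, on each of the 8 arrays relative to the mean of all arrays. All 4 are lowest on Npc1-/- array 3.

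The cerebella are bulk tissue, so fewer cells of a type and less RNA per cell cannot be told apart, and markers of the cells that make matrix are given beside these results. Of 15 meningeal fibroblast markers 14 were measured, 11 on all 8 arrays. Of the 14, 13 lay above 0 (46.6% of all genes) with a median of 0.38, 8 were higher at an unadjusted p under 0.05 (5.09% of all genes), and 6 were higher without overlap between groups (2.96% of all genes). On Npc1-/- arrays 1 to 4 the list median relative to the mean of all arrays was 0.28, 0.34, 0.00 and 0.20, and on wild-type arrays -0.47, -0.19, -0.06 and -0.16. The log2 of the summed level ran from 4.18 to 4.71 in Npc1-/- and from 3.94 to 4.30 in wild type. By its median, though not by its summed level, which overlapped between groups, the meningeal list was higher on each Npc1-/- array than on any wild-type array, and within slides the median differed by 0.34, 0.45 and 0.38; its part in those values was not tested. One meningeal marker passed the test: the organic cation transporter Slc22a2 rose by 1.94 ± 0.18 (limma adjusted p = 0.00262), with 3 wild-type arrays well above background.

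Markers of other cells gave 3 calls in 6 lists, 1 higher in the mural list and 1 lower in each of the bone-forming and blood lists. Over all genes 0.767% were called, and the number measured is given with each list. Mural cell markers, 12 of 12 measured, had a median of 0.10; the peptidase gene Anpep rose by 0.77 ± 0.09 (limma adjusted p = 0.00861) and was the only one called. Of 13 endothelial markers limma called 0 (0 at an unadjusted p under 0.05) and the median was 0.03; Slc2a1, the glucose transporter of brain vessels, differed by 0.16. Bone-forming cell markers, 6 of 10 measured, had a median of -0.25, and Sp7, a gene of that list, fell by 1.21 (limma adjusted p = 0.0447). Of the 6, 2 were lower at an unadjusted p under 0.05 (2.31% of all genes). Whether the Sp7 RNA came from bone-forming cells or from others, such as oligodendrocytes, was not tested. Cartilage markers, 8 of 10 measured, had 0 called and a median of 0.24 (Ucma 0.11), and 2 were higher at an unadjusted p under 0.05 (5.09% of all genes). Schwann cell markers, 4 of 6 measured, had 0 called and a median of 0.12 (Drp2 0.15), and 1 was higher at an unadjusted p under 0.05 (5.09% of all genes). Of blood cell markers, 5 of 10 measured, Pf4, a platelet and macrophage chemokine, fell by 1.81 (limma adjusted p = 0.0423), and the list median was 0.24. Of the 5, 1 was lower at an unadjusted p under 0.05 (2.31% of all genes).

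No gene of 4 lists that act on or with collagen passed limma's test. Counts at an unadjusted p under 0.05 stand beside each list, where 5.09% of all genes were higher and 2.31% lower. Of 28 genes for collagen synthesis and processing (prolyl and lysyl hydroxylases, chaperones, propeptidases, crosslinking oxidases) 24 were measured, 0 were called (1 higher and 1 lower unadjusted) and the median was 0.00; Ppib, the prolyl isomerase of the collagen hydroxylation complex, differed by -0.15. Of 20 basement membrane partners (laminins, nidogens, agrin and others) 17 were measured, 0 were called (2 higher unadjusted) and the median was 0.10 (Agrn 0.12). Of 11 collagen receptors 9 were measured, 0 were called (2 higher unadjusted) and the median was 0.07, with the receptor kinase Ddr1 at -0.15. Of 20 genes of the TGF-beta pathway, which drives collagen transcription in fibroblasts, all 20 were measured, 0 were called (1 higher and 2 lower unadjusted) and the median was 0.09; Smad4, the shared mediator, differed by -0.09.

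Of the brain's resident cells, 4 of 10 microglia and macrophage markers rose (0.767% of all genes were called): Trem2 (1.49), Tyrobp (1.31), Cd68 (2.08) and Gpnmb, which had only a bound in wild type (0 of 4 arrays well above background) and was at least 12.2-fold higher in Npc1-/- (limma adjusted p = 0.00045). Of the 10, 8 were higher at an unadjusted p under 0.05 (5.09% of all genes) and 7 without overlap between groups (2.96% of all genes). Of 10 myelinating oligodendrocyte markers 0 were called, 8 were lower at an unadjusted p under 0.05 (2.31% of all genes), 7 were lower without overlap (1.95% of all genes), the median was -0.60, and Mbp differed by -0.19. Of 10 astrocyte markers 0 were called, the median was 0.03 and Aldoc was at 0.00. Their differences ran from -0.30 to 1.08. Of the 10, 1 was higher unadjusted (5.09% of all genes) and 1 higher without overlap between groups (2.96% of all genes). Cerebellar neuron markers had 0 called (2 lower unadjusted), a median of -0.23 and Cbln1 at -0.21.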

How the data were processed

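The Agilent files hold each spot's intensity as the authors deposited it, written by Feature Extraction 9.5 (per the submitters' processing notes), with the background already subtracted array by array (per the file headers). Control spots were left out, spots flagged as outliers (74 to 115 per array) were set to missing, and spots of a probe were averaged. Values are log2 of the processed intensity minus the 75th percentile of the array. A probe was kept if 4 or more of the 8 arrays had it well above background (27164 of 41174), and the probe with the highest mean stood for its gene. Symbols were updated through a RefSeq table of GRCm38.p6; probe coordinates are those of the files (mm7). Promoters came from RefSeq (GRCm38.p6), with 34 of 42 genes matched. The bead-array table of the same study was not used here, because its probe numbers come without gene names.

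The test between genotypes was that of limma (version 3.58.1, R 4.3.3; a linear model with moderated variances, two-sided, no covariate, Benjamini-Hochberg adjustment over all 17983 genes, threshold 0.05). The script was tested on simulated data. Each array is 1 mouse of the 8; p-values measure the spread between these arrays. Arrays lay on 4 slides, 3 of them with both genotypes, scanned on 2 days, so slide and scan day were tried as blocks. Background correction, scaling, filter, probe choice, array weights, a replicate block and leaving out arrays were also tried. The normexp background correction used an offset of 50, so smaller differences of dim probes under it are in part built in. The members, lists and the naming rule were chosen with earlier results of these data known. By the rule every matrix gene is named, array values are given for the 4 largest differences and the 2 brightest genes of the fibrillar and basement membrane classes, for each proteoglycan and glycoprotein and for the largest difference of each other class; of each companion list, called genes or the brightest gene; and the 5 genes most like the fibrillar class. A gene that this rule takes is not reported here. Array values of Col8a1, Col8a2, Ttr and Col4a1 were added after their values were seen. Figures were drawn with matplotlib 3.10.9.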

Additional observations from a re-analysis of the deposited data

Results flagged for a closer look

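In 6 of 84 groups of 4 arrays (42 genes, both genotypes), 1 array lay far from the other 3, with a gap to its nearest neighbour that passed Dixon's 95% critical value as a share of the group's whole range; chance alone flags about 1 in 20 groups. In Col7a1, Npc1-/- array 4 read 0.33 where the other Npc1-/- arrays read 1.22 to 1.23 (gap 0.981 of the range). In Col8a1, Npc1-/- array 3 read -0.37 where the others read 1.15 to 1.34 (0.888), and in Col8a2 the same array read -2.26 where the others read -0.90 to -0.70 (0.873). That array was also low in Bgn, at -4.49 against -3.68 to -3.52 (0.835), and high in Col19a1, at -1.89 against -2.31 to -2.25 (0.850). In Col5a3, wild-type array 2 read -0.75 where the other wild-type arrays read -1.13 to -1.07 (0.838).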

How the results depend on the processing

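Over 19 alternatives no matrix gene was called, except with limma's array weights, which called 2, Fmod and Col5a3. Calls over all genes moved more: from 138 to 87 with quantile normalization, 75 with array-median scaling, 59 with no filter on dim probes, 88 with a filter on all 8 arrays, 38 with the slide as a block, 364 with array weights, and 55 to 148 on leaving out single arrays, of which Npc1-/- arrays 1 (65), 2 (60) and 4 (55) and wild-type array 4 (86) moved it by over 1.5 times. Leaving out wild-type arrays 2 and 3 together, chosen after seeing the data, gave 86. With the replicate block, limma called 27 genes and 0 matrix genes; the deviations of same-numbered arrays correlated at 0.149, 0.038, -0.445 and 0.201, so the numbers were not taken as pairs. The fibrillar median ran from 0.20 to 0.36 on leaving out single arrays and the basement membrane median from 0.068 (without Npc1-/- array 2) to 0.19 (without Npc1-/- array 3); with array-median scaling the latter was 0.0078. Of the 38 genes run under all 19 alternatives, 24 kept their sign; of the 4 run under 18, because they failed the filter on all 8 arrays, 2 did (Col24a1 and Col4a5). The other 16 genes changed sign in 52 of 794 values, and the cause was not tested, except that array-median scaling lowers every gene alike: 7 of the 52, and all changes of Col3a1 and Col9a2, came with it. The reversed values were, with normexp and quantile normalization, Bgn -0.063, Col15a1 -0.018, Col20a1 -0.015 and Col5a2 -0.0019; with quantile normalization alone, Bgn -0.10, Col15a1 -0.12, Col25a1 -0.0079 and Col9a3 0.0062; and with array-median scaling, Bgn -0.094, Col13a1 -0.020, Col15a1 -0.058, Col20a1 -0.016, Col23a1 -0.077, Col3a1 -0.0083 and Col9a2 -0.026. The mean of all probes turned Col11a2 to 0.24. The slide block turned Bgn to -0.0072, Col15a1 to -0.024, Col17a1 to 0.059 and Col27a1 to -0.0078, and the scan-day block turned Bgn to -0.090, Col15a1 to -0.025, Col17a1 to 0.088 and Col8a1 to -0.0068. Array weights turned Bgn to -0.014, Col25a1 to -0.080 and Col8a2 to 0.12, and leaving out wild-type arrays 2 and 3 turned Col25a1 to -0.10, Col6a2 to 0.15, Col8a2 to 0.13 and Col9a3 to 0.051. On leaving out single arrays the ranges that crossed 0 were Bgn -0.090 to 0.24, Col11a2 -0.41 to 0.032, Col13a1 -0.048 to 0.19, Col15a1 -0.15 to 0.26, Col17a1 -0.21 to 0.072, Col20a1 -0.034 to 0.20, Col23a1 -0.012 to 0.090, Col25a1 -0.012 to 0.45, Col27a1 -0.096 to 0.32, Col6a2 -0.45 to 0.077, Col8a1 -0.023 to 0.54, Col8a2 -0.18 to 0.34 and Col9a3 -0.11 to 0.0033. Groups of 4 arrays, and dim probes such as those of Col4a5, Col15a1, Col24a1 and Col25a1, limit what these values resolve.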
